A study of Mus musculus with 4 samples.

Results

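The genes described here encode the parts of major histocompatibility complex (MHC) class II antigen presentation, measured in Ly6G+ myeloid-derived suppressor cells (MDSCs) of the bone marrow. The 10 genes were listed by name for their role in this pathway: the classical chains H2-Aa, H2-Ab1, H2-Ea and H2-Eb1, the invariant chain Cd74, the peptide editors H2-DMa, H2-DMb1, H2-Oa and H2-Ob, and the transactivator Ciita. A gene counted as measured where a probe set named that gene alone, and 9 of the 10 did so, among 19938 genes measured in all. H2-DMb1 had a probe set only in common with its near-identical neighbour H2-DMb2, and that probe set is given apart from the rest.

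RNA came from mice that lack lysosomal acid lipase (LAL), written lal-/-, with 2 arrays, and from wild type mice, written lal+/+, with 2 arrays. All animals were 5 months old and of a line backcrossed onto FVB/N, the strain background that both genotypes share. LAL, encoded by Lipa, breaks down cholesteryl esters and triglycerides in the lysosome, and the knock-out removes it from every cell of the animal, not from the myeloid cells alone. The cells were purified from the marrow through Ly6G, and the labels describe them as CD11b and Gr-1 positive. The methods give a number of mice for the cell isolation but do not say how those mice were spread or pooled over the arrays, so each p-value measures the spread between arrays, which may be technical.

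MHC class II molecules carry peptides from the endosome to the cell surface and show them to CD4+ T cells. The alpha and beta chains pair in the endoplasmic reticulum around the invariant chain, which fills the groove and leads the complex to the endosome, where proteases cut it down to a short fragment. H2-DM then exchanges that fragment for peptide, and H2-DO holds H2-DM back. Transcription of the other genes of the set turns largely on CIITA. It is a coactivator that binds no DNA itself and docks onto RFX, CREB and NF-Y at the X and Y boxes of the promoters. In the marrow the set is known from B cells, dendritic cells and macrophages, whereas neutrophils at rest carry little of it.

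The promoter sequences are shown because these boxes are the known route by which class II genes are controlled together. The RefSeq promoter table is of GRCm38.p6, the C57BL/6J reference and not FVB/N. Its windows span 300 bases, 250 before and 50 after a transcription start. On chromosome 17 it held windows for 5 of the measured members and for H2-DMb1. In 5 genes a window held the X core GNAAC followed by ATTGG, the inverted CCAAT of the Y box. Both lay on the strand of the gene, 25 to 45 bases from start to start. The other strand was not searched for the pair in these windows. Capitals mark the X core and then the Y core, each sequence runs 5′ to 3′ on the strand of the gene, and 30 bases stand on either side.
H2-Oa, chr17:34092273-34092370, plus strand: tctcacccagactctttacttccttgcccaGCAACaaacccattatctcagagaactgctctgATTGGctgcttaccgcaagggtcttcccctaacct
H2-DMb1, chr17:34153067-34153164, plus strand: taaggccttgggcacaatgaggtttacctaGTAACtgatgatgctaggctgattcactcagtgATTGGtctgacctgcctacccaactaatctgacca
H2-Ob, chr17:34238788-34238882, plus strand: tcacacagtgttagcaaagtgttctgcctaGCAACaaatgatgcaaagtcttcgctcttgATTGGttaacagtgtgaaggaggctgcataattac
H2-Aa, chr17:34287837-34287934, minus strand: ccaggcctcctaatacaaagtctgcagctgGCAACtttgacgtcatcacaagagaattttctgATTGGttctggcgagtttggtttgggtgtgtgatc
H2-Eb1, chr17:34305746-34305842, plus strand: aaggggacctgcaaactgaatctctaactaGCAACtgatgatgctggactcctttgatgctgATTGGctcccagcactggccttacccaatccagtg

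The X core began 76 bases before the start in H2-Oa, 81 in H2-Aa, 87 in H2-Ob, 91 in H2-Eb1 and 94 in H2-DMb1, and the Y core lay 30 to 33 bases further on. Of all 32851 windows in the table, 84.8% held the X core, 37.4% the Y core and 3.41% the pair at this spacing. These shares come from a search of both strands, which is wider than the search made in the windows above. The motif pair was settled on after these sequences had been looked at, so its presence in them is a description. The windows of H2-DMa did not hold the pair on the strand of the gene, while that of H2-Eb2, a class II gene outside the set, did. Among the 5 measured members whose windows were searched, the pair was thus seen in H2-Oa, H2-Ob, H2-Aa and H2-Eb1 only. H2-Ab1, H2-Ea and Ciita had no entry in the table. Windows on chromosome 18, where Cd74 lies, were left out of the search for members.

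The levels below are log2 values after quantile normalization of the 4 arrays, and each difference is lal-/- minus lal+/+ from a limma fit over all probe sets that name 1 gene, with Benjamini-Hochberg adjusted p. A gene was called where the adjusted p was under 0.05 and the fold at least 2. Of the 9 measured members, 8 were called lower in lal-/- cells and 0 higher. Over all genes tested, 3.24% were called lower and 7.56% higher. The median log2 fold change of the members was -2.42, against 0.08 over all genes. For all 9 members both lal-/- arrays lay below both lal+/+ arrays, and the share of all genes with that pattern was not counted. Of the probe sets that name 1 gene, 40.9% had an unadjusted p under 0.05 in limma, in either direction. None of the members was higher at an unadjusted p under 0.05 in limma. Because the samples are bulk RNA, fewer cells that carry these transcripts and less of the transcript per cell cannot be told apart.

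**Figure D1:**
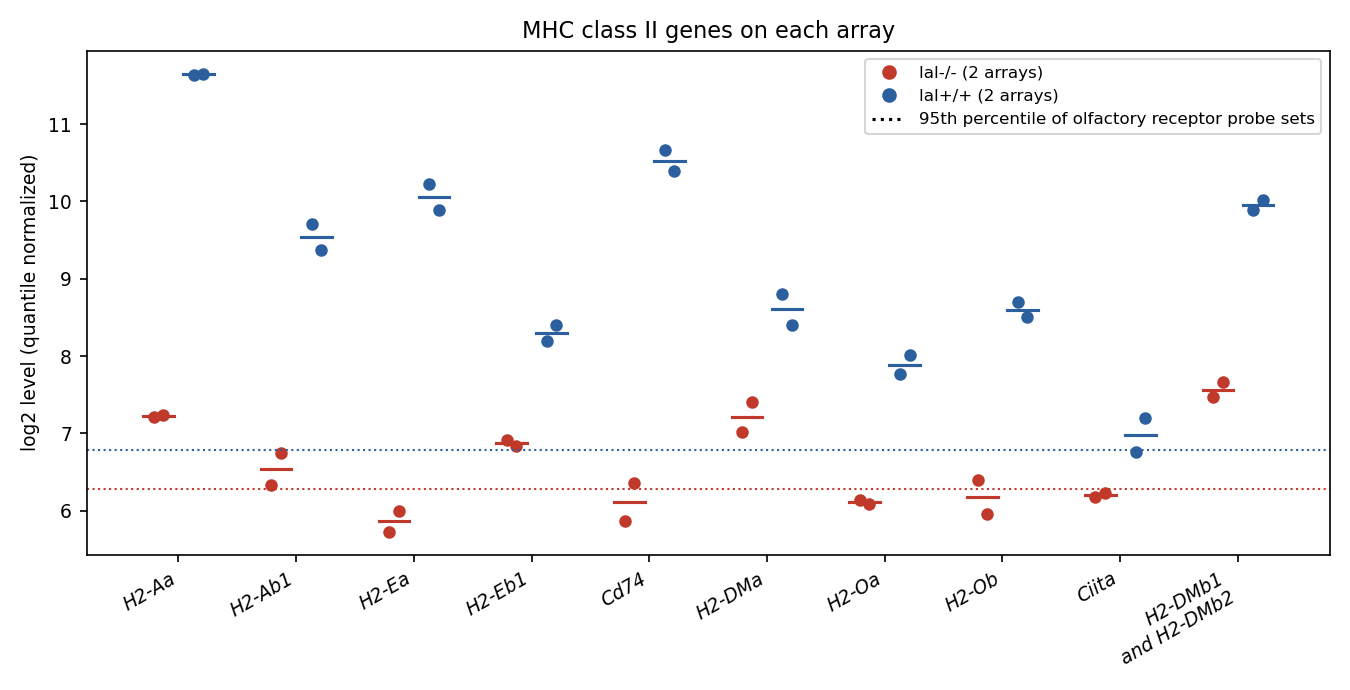
Log2 level (quantile normalized, y axis) of each member on the 2 lal-/- arrays (red) and the 2 lal+/+ arrays (blue), with horizontal bars at the group means and dotted lines at the 95th percentile of olfactory receptor genes in each genotype. Every lal-/- point lies below both lal+/+ points of its gene, and the lal-/- means of H2-Ea, Cd74, H2-Oa, H2-Ob and Ciita fall under the lal-/- line at 6.29.

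The chains of the A molecule came first. H2-Aa, the alpha chain, stood at 7.21 and 7.24 in lal-/- cells and at 11.64 and 11.65 in lal+/+ cells. Its replicates were nearly identical in either genotype, and the level in lal-/- cells was 4.67% of that in lal+/+ cells (log2 fold change -4.42, SE 0.12, adjusted p = 1.91e-05, limma). H2-Ab1, the beta chain that pairs with it, stood at 6.34 and 6.74 in lal-/- cells and at 9.71 and 9.37 in lal+/+ cells. The groups were well apart although the replicates differed more than those of H2-Aa, and the difference was -3.0 (SE 0.19, adjusted p = 0.000107, limma), a level 12.5% of lal+/+.

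The chains of the E molecule changed to unlike degrees. H2-Ea, the E alpha chain, stood at 5.73 and 6.0 in lal-/- cells and at 10.23 and 9.89 in lal+/+ cells, a difference of -4.20 (SE 0.17, adjusted p = 3.17e-05, limma). H2-Eb1, the E beta chain, stood at 6.92 and 6.84 in lal-/- cells and at 8.19 and 8.41 in lal+/+ cells, a difference of -1.42 (SE 0.13, adjusted p = 0.000419, limma). The 95% interval of H2-Ea ran from -4.59 to -3.80 and that of H2-Eb1 from -1.74 to -1.10, and the difference between the 2 genes was not tested. RefSeq lists H2-Ea as a transcribed pseudogene in the C57BL/6J reference, and FVB/N mice carry the H2q haplotype, which is known to make no E molecule at the surface, so the E chain values are transcript values alone. The alleles that the probes of these polymorphic genes were designed on are not known here, and both genotypes share the strain.

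Cd74, the invariant chain, lies on another chromosome (18) than the H2 genes (17). Its level was 5.87 and 6.36 in lal-/- cells and 10.66 and 10.39 in lal+/+ cells, a difference of -4.41 (SE 0.19, 95% interval -4.86 to -3.95, adjusted p = 4.59e-05, limma). Both lal-/- arrays lay more than 4 log2 units below either lal+/+ array, and its lal-/- mean was in the range of silent probe sets.

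The editors of the peptide groove fell less far than H2-Aa and Cd74, by point estimate. H2-DMa, the alpha chain of the exchange catalyst, stood at 7.02 and 7.41 in lal-/- cells and at 8.80 and 8.40 in lal+/+ cells (log2 fold change -1.39, SE 0.19, adjusted p = 0.00198, limma). The gap between the closest arrays of the 2 genotypes remained wider than the gap between replicates, and the lal-/- level was 38.2% of that in lal+/+ cells. The probe set that names H2-DMb1 and H2-DMb2 together, the beta chains of the same molecule, read 7.47 and 7.66 in lal-/- cells and 9.89 and 10.02 in lal+/+ cells. Its difference was -2.39 (SE 0.14, adjusted p over all 35557 probe sets = 0.00225, limma), and the 2 genes cannot be separated in it.

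H2-DO, the inhibitor of H2-DM, is known mainly from B cells. H2-Oa, its alpha chain, stood at 6.14 and 6.09 in lal-/- cells and at 7.76 and 8.01 in lal+/+ cells (log2 fold change -1.77, SE 0.14, adjusted p = 0.000209, limma). H2-Ob, its beta chain, stood at 6.40 and 5.96 in lal-/- cells and at 8.70 and 8.51 in lal+/+ cells (log2 fold change -2.42, SE 0.17, adjusted p = 0.000174, limma). Both fell, and their 95% intervals, -2.10 to -1.45 for H2-Oa and -2.84 to -2.01 for H2-Ob, overlapped.

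Ciita was the member that was not called. It stood at 6.18 and 6.23 in lal-/- cells and at 6.76 and 7.20 in lal+/+ cells, a difference of -0.78 (SE 0.17, 95% interval -1.18 to -0.37, adjusted p = 0.0138, limma). The adjusted p passed and the fold, 1.71, did not. Its mean lay at percentile 94.0 of the silent probe sets in lal-/- cells and at percentile 95.9 in lal+/+ cells. The 95th percentile of those probe sets was itself lower in lal-/- cells, at 6.29 against 6.79. How much of the Ciita difference goes with that shift was not tested. One of its lal+/+ arrays, replicate 1, lay at the edge of the range of silent probe sets, and without that array the difference was -1.0 (adjusted p = 0.0029, limma), which was called. Without lal+/+ replicate 2 it was -0.55 (adjusted p = 0.0261), and without lal-/- replicate 1 the adjusted p was 0.0549 at a difference of -0.75 and no longer passed.

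**Figure D2:**
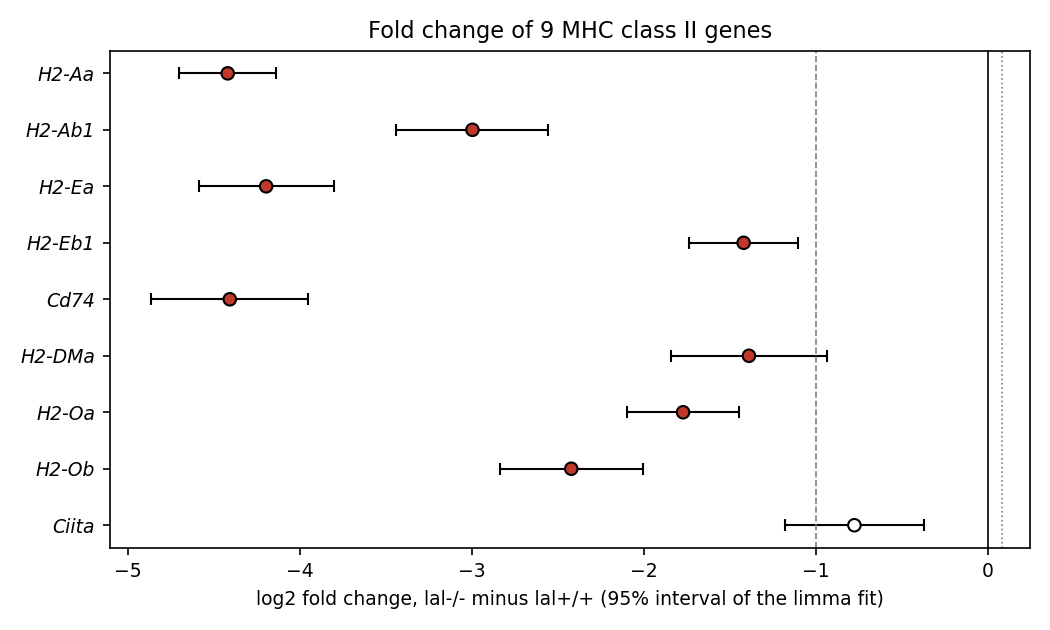
Log2 fold change, lal-/- minus lal+/+ (x axis), of the 9 members with the 95% interval of the limma fit; filled points were called lower, the open point was not called, the dashed line marks a fold of 2 and the dotted line the median of all genes, 0.08. H2-Aa, H2-Ea and Cd74 lie beyond -4, H2-Eb1 and H2-DMa near -1.4, and Ciita at -0.78 is short of the dashed line.

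The low end of the array's range bears on these sizes. As a level for genes that these cells should not transcribe, 1035 olfactory receptor probe sets were taken, whose 95th percentile was 6.29 in lal-/- cells and 6.79 in lal+/+ cells. The lal-/- means of 5 members, H2-Ea, Cd74, H2-Oa, H2-Ob and Ciita, lay under that percentile, against 0 of the lal+/+ means. The fold changes of those 5 genes were therefore measured against a level within the range of silent probe sets. H2-Aa at 7.23 ± 0.02, H2-DMa at 7.21 ± 0.28, H2-Eb1 at 6.88 ± 0.06 and H2-Ab1 at 6.54 ± 0.29 (SD, n = 2) kept a lal-/- mean above it.

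The median gap between replicates was wider over the members than over all genes. In lal-/- cells the 2 arrays differed by a median of 0.267 over the members and 0.119 over all genes, without regard to sign, and in lal+/+ cells by 0.274 over the members and 0.174 over all genes. The members with gaps under the all-gene median were H2-Aa, H2-Oa, H2-Eb1 and Ciita in lal-/- cells and H2-Aa in lal+/+ cells. The members did not move together between the replicates: lal-/- replicate 1 was the higher of its pair for 3 of 9 members and lal+/+ replicate 1 for 5 of 9. In lal+/+ cells H2-Ab1, H2-Ea, H2-DMa and Cd74 were 0.27 to 0.40 higher in replicate 1, whereas Ciita was 0.45 lower there and H2-Aa differed by 0.01. Each called difference was larger than any of these gaps.

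All members on chromosome 17 sit in the class II region, interleaved with genes of other function, so the neighbours give a view of the same stretch of chromosome. In RefSeq order the region runs H2-Oa, Brd2, H2-DMa, H2-DMb2, H2-DMb1, Psmb9, Tap1, Psmb8, Tap2, H2-Ob, H2-Ab1, H2-Aa, H2-Eb1, H2-Eb2 and H2-Ea. Of the 7 genes between the outermost members that are not members, 6 were measured and 0 were called. Tap1 and Tap2, which pump peptides into the endoplasmic reticulum for class I, had log2 fold changes of 0.12 and 0.70, and Psmb9 and Psmb8, subunits of the immunoproteasome, 0.18 and -0.37. Brd2, a chromatin reader, had -0.34.

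H2-Eb2, a class II beta chain gene outside the set, lies between H2-Eb1 and H2-Ea. It read 6.28 and 6.04 in lal-/- cells and 6.49 and 6.53 in lal+/+ cells (log2 fold change -0.35, adjusted p = 0.0965, limma), under the 95th percentile of the silent probe sets in both genotypes. With 8 genes added on each side of the region, 19 measured neighbours included 0 called lower and 1 called higher, Pbx2, a homeobox cofactor, at 1.55. Their median log2 fold change was 0.12.

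**Figure D3:**
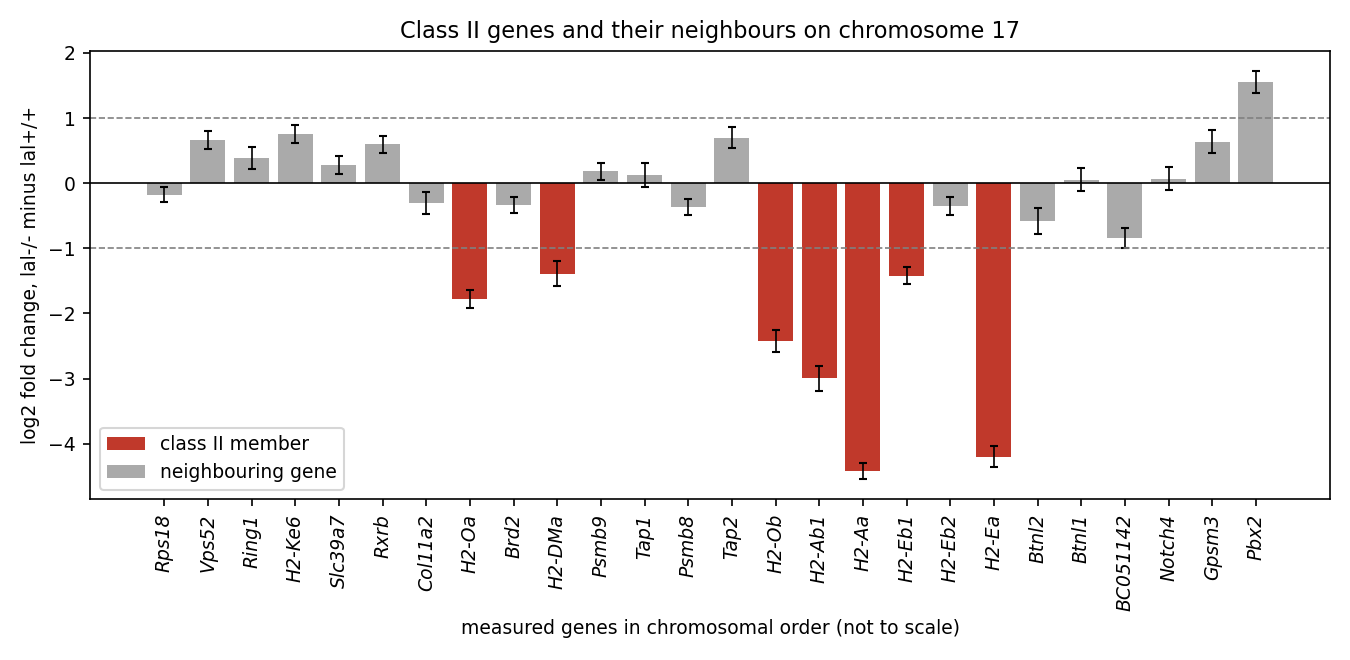
Log2 fold change, lal-/- minus lal+/+ (y axis), of the measured genes of the class II region and 8 flanking genes on each side in chromosomal order (x axis, not to scale), with the SE of the limma fit as error bars and dashed lines at a fold of 2. The members (red) lie between -1.39 and -4.42, and of the neighbours (grey) only Pbx2 passes a dashed line.

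Among 7 measured factors of class II promoters (RFX, NF-Y and CREB subunits), 0 were called lower and 1 higher, beside the shares of 3.24% and 7.56% over all genes, so the counts do not set this short list apart. Their median was 0.22, or 0.58 with the arrays set to a common median (2 called higher) and 0.40 with the values as deposited. The called one was Nfyb, a subunit of NF-Y, at 10.19 and 10.19 in lal-/- cells and at 8.66 and 8.56 in lal+/+ cells (log2 fold change 1.58, adjusted p = 0.000209, limma). Rfxap and Rfxank, subunits of RFX, had differences of 0.72 and 0.53 with adjusted p of 0.00759 and 0.0149 but short of the fold threshold, which Rfxap passed with a common median (1.12, adjusted p = 0.000358). Rfx5, the DNA-binding subunit, had 0.02 (adjusted p = 0.912) and lay in the range of silent probe sets in both genotypes.

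Of 13 measured genes known to act on Ciita, directly or through signalling upstream of it, 1 was called higher and 1 lower. Over all genes the shares were 7.56% higher and 3.24% lower. With a common median and with the values as deposited Ifngr2 and Bcl6 were called as well, giving 3 higher and 1 lower. The list median of -0.24 turned to 0.31 with a common median and to 0.13 with the values as deposited, so no direction is given to it. Spi1, which encodes the myeloid and B cell factor PU.1, rose to 10.44 and 10.36 in lal-/- cells, against 9.38 and 8.92 in lal+/+ cells (log2 fold change 1.25, adjusted p = 0.00199, limma). Irf4, an interferon regulatory factor of B cells and dendritic cells, stood at 5.99 and 5.41 in lal-/- cells and at 7.32 and 6.72 in lal+/+ cells (log2 fold change -1.32, adjusted p = 0.00851, limma). Irf8, its relative in the myeloid lineage, had -0.78 (adjusted p = 0.00524), short of the fold threshold.

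Part of the endosomal processing list fell. Of the 10 genes on that list 4 were called lower and 0 higher, beside shares of 3.24% and 7.56% over all genes. With a common median and with the values as deposited 3 were called lower. The list median of -0.42 turned to 0.09 with a common median and was -0.09 with the values as deposited. Ifi30, the thiol reductase GILT that opens disulfide bonds of antigens, stood at 7.59 and 7.61 in lal-/- cells and at 10.60 and 10.57 in lal+/+ cells (log2 fold change -2.98, adjusted p = 3.29e-05, limma). Ctss, the cathepsin that cuts the invariant chain in B cells and dendritic cells, stood at 9.65 and 9.50 in lal-/- cells and at 11.67 and 11.69 in lal+/+ cells (log2 fold change -2.10, adjusted p = 9.72e-05, limma). Both genes fell with little spread between replicates and stayed above the silent range in lal-/- cells.

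Lgmn, the asparaginyl endopeptidase, stood at 6.57 and 6.46 in lal-/- cells and at 8.83 and 8.36 in lal+/+ cells (log2 fold change -2.08, adjusted p = 0.000276, limma). Ctsb, a cysteine cathepsin of broad use, had -1.20 (adjusted p = 0.000545), but this call was lost with a common median (-0.56) and with the values as deposited (-0.74). Ctsl, which cuts the invariant chain in thymic epithelium, had 0.34 and was not called.

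The genes that recycle class II at the membrane, including tetraspanins, gave 1 call higher and 0 lower among 9 measured, with a median of 0.07. Over all genes 7.56% were called higher and 3.24% lower, so these counts do not set the list apart. With a common median and with the values as deposited Cd82 was called too, giving 2 higher with medians of 0.53 and 0.35. The call was Cd9, a tetraspanin, at 2.49 (adjusted p = 0.000109, limma). Of 11 costimulatory and coinhibitory genes, which T cells read beside the class II complex, 4 were called lower and 0 higher. The shares over all genes, 3.24% lower and 7.56% higher, stand beside these counts as well. The median of the 11 was -0.26. It includes 4 uncalled genes, Pdcd1lg2, Tnfsf4, Tnfsf9 and Cd70, that lay within the silent range in both genotypes. Cd86, a ligand of CD28, stood at 7.31 and 7.76 in lal-/- cells and at 9.44 and 9.25 in lal+/+ cells (log2 fold change -1.81, adjusted p = 0.000503, limma). Cd48 had -1.89, Cd274, which encodes PD-L1, -1.48, and Cd40, the receptor through which T cells activate B cells and dendritic cells, -1.28.

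Class I molecules present peptides of the cytosol to CD8+ T cells. Of 14 measured class I genes 1 was called lower and 0 higher, with a median of 0.01. Over all genes 3.24% were called lower and 7.56% higher, so these counts do not set the list apart. The list median turned to 0.42 with a common median and 0.24 with the values as deposited, and Psme2 was called higher in both. B2m, the light chain of class I molecules, differed by -0.37 (adjusted p = 0.057, limma). The called gene was Nlrc5, the class I transactivator and a relative of Ciita, at 9.14 and 9.05 in lal-/- cells and at 10.38 and 11.08 in lal+/+ cells (log2 fold change -1.63, adjusted p = 0.00192, limma). The heavy chain genes H2-K1 and H2-D1 had no probe set that names them alone.

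**Figure D4:**
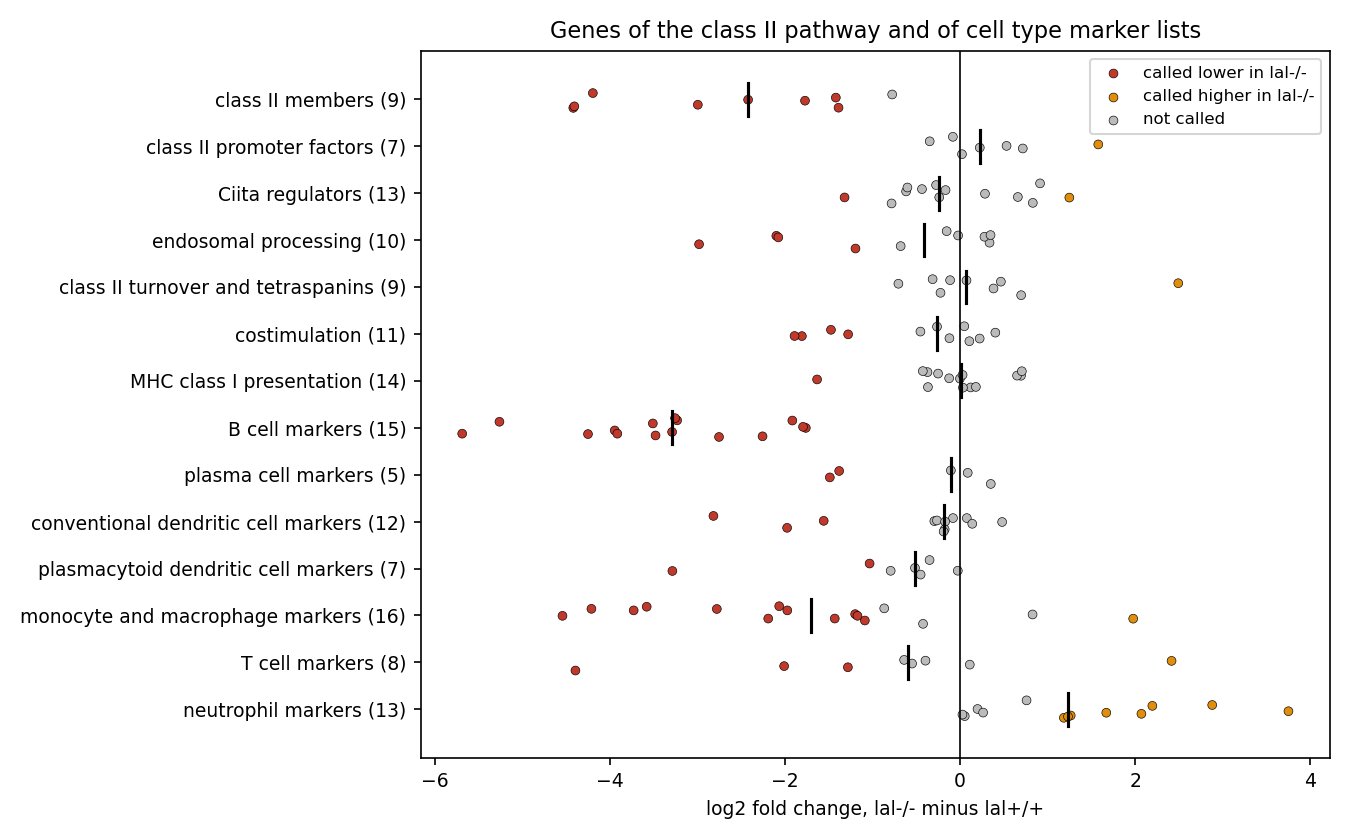
Log2 fold change, lal-/- minus lal+/+ (x axis), of every measured gene of the class II members, the related pathway lists and the cell type marker lists (number measured in brackets), coloured by call, with a black bar at the list median. The class II members (median -2.42) lie left of the promoter factors (0.22) and class I genes (0.01), and the B cell markers (-3.29) and the monocyte and macrophage markers (-1.70) also lie to the left, with the neutrophil markers (1.23) to the right.

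Markers of B cells, and most markers of monocytes and macrophages, were called lower as the members were, while most dendritic cell markers were not called. The shares over all genes, 3.24% lower and 7.56% higher, stand beside the counts of each marker list here and below. Of 15 measured B cell markers all 15 were called lower, with a median of -3.29. The linear signal (2 to the power of the log2 level) summed over the list was 1296 and 1256 in lal-/- cells and 14987 and 13539 in lal+/+ cells, so lal-/- cells had 8.94% of it. The same sum over the 9 class II members was 818 and 895 in lal-/- cells and 8329 and 7618 in lal+/+ cells, or 10.7%. No background was subtracted from these or the later sums, so each includes signal at the low end of the array's range. The deepest decreases were those of Cr2, complement receptor CD21, at -5.69, Ms4a1, which encodes CD20, at -5.26, Ebf1, a B lineage factor, at -4.25 and Cd79b, of the B cell receptor, at -3.95. Of the genes that define the lineage, Cd79a had -2.76 and Pax5 -2.26. In lal-/- cells 6 of the 15 lay under the 95th percentile of silent probe sets, against 0 in lal+/+ cells.

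Monocyte and macrophage markers gave 12 calls lower and 1 higher among 16, with a median of -1.70. With a common median 10 were called lower and 1 higher. Their summed signal was 2442 and 2434 in lal-/- cells and 10005 and 9225 in lal+/+ cells, or 25.4%. Mrc1, the mannose receptor, had -4.54, Spic, a factor of red pulp and marrow macrophages, -4.21, Vcam1 -3.73, Ly86 -3.58 and Adgre1, which encodes F4/80, -2.19. Csf1r, the receptor for macrophage colony-stimulating factor, had -1.43, a call lost with a common median (-0.93). F13a1, a gene of classical monocytes, was the call in the other direction, at 1.98. The only other marker with a positive difference was Ccr2, at 0.83 (adjusted p = 0.016, limma), short of the fold threshold. Both had a lal+/+ mean under the 95th percentile of silent probe sets. In lal-/- cells 7 of the 16 lay under the 95th percentile of silent probe sets, against 3 in lal+/+ cells. Mrc1 and Spic were among the 7.

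Conventional dendritic cell markers gave 3 calls lower and 0 higher among 12, with a median of -0.18 (-0.42 with the values as deposited), and their sum was 829 and 782 in lal-/- cells and 1688 and 1711 in lal+/+ cells. The calls were Kmo at -2.82, the integrin Itgax at -1.98 and the chemokine receptor Ccr7 at -1.56, of which the last 2 are also known from other leukocytes. The lineage genes Zbtb46 (-0.08) and Flt3 (0.08) were among 8 of the 12 that lay within the silent range in both genotypes. Plasmacytoid markers gave 2 calls lower and 0 higher among 7, Ly6d at -3.29 and Tcf4 at -1.03, with Siglech at -0.52 and sums of 637 and 605 in lal-/- cells and 1776 and 1598 in lal+/+ cells. Ly6d and Tcf4 are also genes of B lineage cells, and the call of Tcf4 was lost with a common median, with the values as deposited, without lal-/- replicate 2 and without lal+/+ replicate 1.

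Plasma cell markers gave 2 calls lower and 0 higher among 5, Mzb1 at -1.49 and Jchain at -1.38, the second of which was lost with a common median and with the values as deposited. T cell markers gave 3 calls lower, Cd2 at -4.40, Cd3g at -2.01 and Cd3e at -1.28, and 1 higher, Cd3d at 2.42, among 8. The mean of Cd3d was 12.73 in lal-/- cells and 10.31 in lal+/+ cells, against 6.77 and 8.05 for Cd3e. In lal-/- cells 3 of the 8 lay under the 95th percentile of silent probe sets, against 1 in lal+/+ cells. Neutrophil markers gave 8 calls higher and 0 lower among 13, with a median of 1.23 and sums of 99438 and 99411 in lal-/- cells and 60057 and 58553 in lal+/+ cells. Among them were Mpo at 3.75, Ly6g at 2.88, Elane at 2.20, Mmp9 at 2.07 and Itgam at 1.19. The lal+/+ means of Mpo and Elane lay under the lal+/+ 95th percentile of silent probe sets. The part that any of these cell types had in the class II differences was not tested.

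The genes whose centred values on the 4 arrays lay nearest to the median profile of the members (-0.99 and -1.30 in lal-/- cells, 1.31 and 1.12 in lal+/+ cells) were Trps1, Pax5, Slc25a4, Gm14403, Ly9, Rab30, Arap2, Gbp9, Rasgrp1 and Gzma. Their root mean square distances from it were 0.054 for Trps1 to 0.12 for Gzma on the log2 scale, and their log2 fold changes ran from -2.52 to -2.18. The ranking used 4 values a gene, is a description of likeness, and lists Pax5 also as a B cell marker.

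As facts on the arrays, replicates correlated at r = 0.987 in lal-/- cells and 0.984 in lal+/+ cells over probe sets, and arrays of different genotype at 0.922 to 0.932. Lipa, the gene removed in the knock-out, had 7.37 and 7.49 in lal-/- cells and 9.50 and 9.05 in lal+/+ cells (log2 fold change -1.85, adjusted p = 0.000417, limma), so the lower arrays are those labelled as knock-out. Ly6g and Itgam, the genes of the surface markers used to define the cells, lay above the silent range in both genotypes.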

How the data were processed

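Total RNA of Ly6G+ bone marrow cells was hybridised to Affymetrix whole-transcript mouse gene arrays, 2 for lal-/- and 2 for lal+/+. Per the labels the scans were handled in GCOS 1.1, and the labels name NuGEN amplification where the methods name an Affymetrix kit. The deposited values are log2 levels per probe set that the authors normalized and summarized by RMA in Partek. The number of arrays they normalized together is not stated in those sources.

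Deposited array medians lay up to 0.21 apart, so the log2 values were quantile normalized over all 35557 probe sets. Of these, 21789 named 1 gene in the platform annotation, 1621 named several and 12147 none. Symbols were updated through gene IDs for 21698. limma (version 3.58.1, R 4.3.3) was fitted over the 1-gene probe sets with genotype as the only term, and p-values were adjusted over them by Benjamini-Hochberg. The brightest probe set stood for each gene. The fold threshold and adjusted p are those of the methods. Errors are the SD of 2 arrays or the SE of the fit. An exact two-sided permutation test of 2 against 2 arrays cannot go below p = 0.333, so none is given. The number of arrays limits the precision.

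Named genes were all members, called genes of the pathway lists, a few uncalled ones, up to 4 called genes per direction and the defining genes of each marker list, Lipa, and the 10 genes nearest in profile. The members and lists were chosen with earlier results of these data known. Alternatives covered scaling, filters, the variance model, a replicate block, thresholds and each array left out.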

Additional observations from a re-analysis of the deposited data

How the results depend on the processing

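The count of 8 members lower held in 12 of 15 alternatives, and 0 members were higher in any of them. Without the fold threshold, and without lal+/+ replicate 1, all 9 were lower. Under an ordinary linear model, without the variance shared between genes by limma, 0 were called after adjustment (adjusted p 0.0507 to 0.212), although 8 of 9 had an unadjusted p under 0.05, and over all genes 0 of the 5691 with such a p were called. The members' median log2 fold change, -2.42, was -2.16 with a common median of the arrays and ran from -2.64 to -2.21 as each array was left out.

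The replicate numbers did not pair the arrays (correlation of same-numbered deviations -0.18), and a fit with the replicate block gave 8 lower, as did a crossed block chosen after seeing the data. Scaling moved the balance over all genes: 1508 higher and 646 lower (70.0% higher), 2620 and 466 with a common median (84.9%), and 2013 and 632 as deposited (76.1%), with medians of all genes at 0.08, 0.12 and -0.05. Without a fold threshold there were 3938 higher and 1963 lower. In lal-/- cells 5 members lay within the range of silent probe sets. The causes of these shifts were not tested.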
